A study of Mus musculus with 9 samples.

Results

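Tox, Tox2 and Tox4 are 3 members of the Tox family of nuclear proteins, which bind DNA through a shared high mobility group (HMG) box. They were taken by gene symbol, with no limit set on their values, from a deposited expression table of 16500 mouse genes. The choice was made with earlier results of these data known. Expression was measured by paired-end RNA sequencing of primary CD4+ T cells isolated from C57BL/6 mice, kept in RPMI-1640 medium with fetal bovine serum and transduced with a retrovirus. There were 9 libraries in 3 groups of 3: cells given the NFAT2_CARIT vector, cells given the NFAT2_CA vector, and cells given a control vector (Control). Nfatc1 encodes NFAT2, a transcription factor that calcium signals switch on. The CA form works without that signal, and the added RIT mutations weaken its joint binding with AP-1, the partner made of Fos and Jun proteins. All 3 groups share the mouse strain, the cell type and the transduction. The sources used here do not give the promoter in the vectors, the share of cells that carried one, the age of the mice or the time of harvest. The labels do not say that the libraries came from separate mice or cultures, so p-values reflect the spread among these libraries alone, which may be technical.

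Tox is required for CD4 T cell development in the thymus and, in studies of chronic infection and tumours, sustains the exhausted state of T cells. NFAT acting without AP-1 is known to favour exhaustion genes, among them Tox. Tox2 is known from follicular helper T cells and, with Tox, from exhausted CD8 T cells. Tox4 is broadly expressed and is a subunit of the PTW/PP1 phosphatase complex, which acts on RNA polymerase II and chromatin. Tox3, the remaining family member, was not analysed here.

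The members are spelled differently at the DNA level where their proteins are the same. The start of the HMG box is shown because it encodes the domain that defines the family and shows how far reads of its members can be told apart. Each line is a stretch of 75 coding bases with no intron, 5′ to 3′ on the coding strand, read from the GENCODE M21 transcripts on GRCm38, and capitals mark the bases that differ from Tox. Tox lies at chr4:6722228-6722302 on the minus strand, Tox2 at chr2:163315858-163315932 on the plus strand and Tox4 at chr14:52287367-52287441 on the plus strand.
Tox: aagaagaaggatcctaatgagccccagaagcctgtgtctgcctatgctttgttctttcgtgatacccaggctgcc
Tox2: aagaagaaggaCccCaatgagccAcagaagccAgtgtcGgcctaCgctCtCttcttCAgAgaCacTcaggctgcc
Tox4: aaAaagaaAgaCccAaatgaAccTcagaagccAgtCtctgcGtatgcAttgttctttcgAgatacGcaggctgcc
Tox2 differs from Tox at 13 of these bases (82.7% identical) and Tox4 at 12 (84.0% identical), yet all 25 codons encode the same residue in the 3 genes. Over all annotated transcripts the longest identical run was 20 bases between Tox and Tox2, 19 between Tox and Tox4 and 17 between Tox2 and Tox4, and no window of 25 bases was shared. The longest coding sequences hold 526, 547 and 619 codons in Tox, Tox2 and Tox4, not counting the stop codon.

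Tox spans 6686353 to 6991557 on chromosome 4 (minus strand), Tox2 spans 163203125 to 163324170 on chromosome 2 (plus strand) and Tox4 spans 52279146 to 52296401 on chromosome 14 (plus strand), all on GRCm38. Promoter windows of 300 bases from RefSeq (GRCm38.p6), running from 250 bases before a gene's start to 50 after it, were searched on both strands for GGAAA, the core that NFAT binds, and for TGANTCA, the AP-1 motif. GGAAA was in 61.3% and TGANTCA in 7.81% of all 32851 such windows. The Tox4 window held neither set of letters. Of the 5 overlapping or alternative Tox2 windows, 2 held GGAAA once, and these 2 start 1 base apart, while none held TGANTCA. The Tox window was not analysed here.

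Levels are CPM values, for which the authors scaled each gene's reads to a fixed total per library. A value is thus a level relative to the library's other genes. Depth was worked out from the step between neighbouring low values as 19946000 to 38187600 reads a library, so that 3 reads, the limit that a count of 0 allows, equal 0.0786 to 0.15 CPM. Such limits and all intervals from reads cover counting error only. A gene was tested with limma on log2(CPM + 1) where 3 or more libraries held 1 CPM of it (13096 genes), and called at a Benjamini-Hochberg adjusted p under 0.05 over all of them. Both vectors were compared with the same 3 Control libraries. Cd4 held 1610 to 1698 CPM with NFAT2_CARIT, 1554 to 1661 CPM with NFAT2_CA and 1504 to 1612 CPM in Control, and was not called in any comparison. Of all 7 CD4 T cell markers, which sum to 4660 to 4780, 5120 to 5440 and 4500 to 4570 CPM in these groups, 2 were higher and 2 lower with NFAT2_CARIT than in Control, and 4 higher and 2 lower with NFAT2_CA. The largest changes against Control were in Cd3e (0.75 with NFAT2_CARIT, 1.18 with NFAT2_CA) and Lat (−1.40 and −1.29). Between the vectors 1 of the 7 was called higher and 3 lower with NFAT2_CARIT, beside 11.9% and 16.7% of all tested genes. Those lower were Cd3d (−0.30), Cd3e (−0.43) and Cd3g (−0.49). Calls were common at large: 70.3% of tested genes were called with NFAT2_CARIT and 65.5% with NFAT2_CA against Control. In RNA from whole cultures, fewer cells of a type and less RNA per cell cannot be told apart.

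Tox was higher with both NFAT2 vectors than in Control, and lower with NFAT2_CARIT than with NFAT2_CA. Tox had 29.2, 31.1 and 31.2 CPM in NFAT2_CARIT libraries, 45.2, 46.7 and 46.3 CPM in NFAT2_CA libraries, and 15.4, 12.2 and 14.5 CPM in Control libraries. The 3 groups did not overlap: the NFAT2_CARIT libraries lay between the others, with 14.0 CPM between their highest and the lowest NFAT2_CA library and 13.8 CPM between their lowest and the highest Control library. Group means were 30.5 ± 1.13 CPM with NFAT2_CARIT, 46.0 ± 0.770 CPM with NFAT2_CA and 14.0 ± 1.63 CPM in Control (SD, n = 3 each). These values rest on 623 to 1134 reads a library with NFAT2_CARIT, 1097 to 1214 with NFAT2_CA and 348 to 388 in Control.

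**Figure D1:**
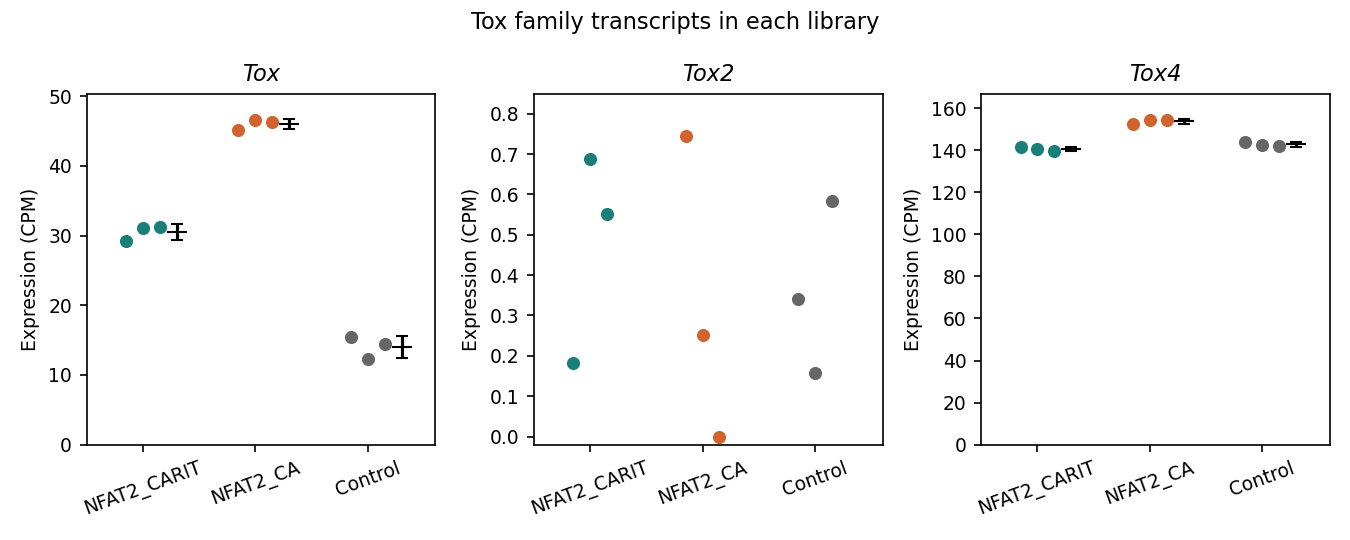
Expression in CPM (linear axes from 0, except that the Tox2 axis starts just below 0) of Tox, Tox2 and Tox4 in the 3 libraries of each group; points are libraries and, for Tox and Tox4, the bar is the mean ± SD. Tox separates the groups, with 29.2 to 31.2 CPM in NFAT2_CARIT, 45.2 to 46.7 CPM in NFAT2_CA and 12.2 to 15.4 CPM in Control, while Tox2 stays below 1 CPM and overlaps.

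With NFAT2_CARIT, Tox rose by 1.07 ± 0.08 (SE) on the log2 scale against Control (95% interval 0.90 to 1.24, adjusted p = 5.26e-09, limma), a ratio of mean CPM of 2.17. With NFAT2_CA it rose by 1.65 ± 0.08 (1.48 to 1.82, adjusted p = 2.8e-11), a ratio of 3.28. The increase over Control was 16.5 CPM with NFAT2_CARIT and 32.0 CPM with NFAT2_CA, so the first was 51.5% of the second, and between 50.1% and 53.6% when any 1 library was left out. The authors' deposited table gives log2 ratios of 1.12 (FDR 4.22e-05) for NFAT2_CARIT and 1.72 (FDR 5.21e-11) for NFAT2_CA against Control.

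Calls were common in these comparisons, so the size of the change says more about Tox than the call. In NFAT2_CARIT against Control 70.3% of tested genes were called (29.2% higher, 41.1% lower), and libraries did not overlap for 73.1%. In NFAT2_CA against Control 65.5% were called (29.0% higher, 36.5% lower), and 68.3% did not overlap. The authors' deposited table called 25.6% and 21.9% of its genes in these comparisons. By size, 1027 of the 13096 tested genes had a larger log2 fold change than Tox with NFAT2_CARIT, and 450 with NFAT2_CA.

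Between the vectors, Tox was 0.58 lower on the log2 scale with NFAT2_CARIT than with NFAT2_CA (−0.58 ± 0.08, 95% interval −0.75 to −0.41, adjusted p = 6.32e-05, limma). The ratio of mean CPM, NFAT2_CARIT over NFAT2_CA, was 0.663. Here 28.6% of tested genes were called, 11.9% higher and 16.7% lower with NFAT2_CARIT, and libraries did not overlap for 44.0%. A larger absolute change was estimated for 880 of 13096 genes. The authors' deposited table gives nearly the same size, a log2 ratio of −0.59, but does not call it (p = 0.0144, FDR 0.294), and it called 2.84% of its genes in this comparison. An exact two-sided permutation test over the 3 libraries a group gave 0.1 in each comparison of Tox, the smallest p that 3 against 3 allows. The split of calls between the vectors depended on the scaling: 1552 genes were higher and 2191 lower with NFAT2_CARIT as reported (41.5% higher), against 2175 and 1699 with TMM factors (56.1%) and 1823 and 1763 with quantile normalization (50.8%). Tox was called lower with NFAT2_CARIT under all 3.

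**Figure D2:**
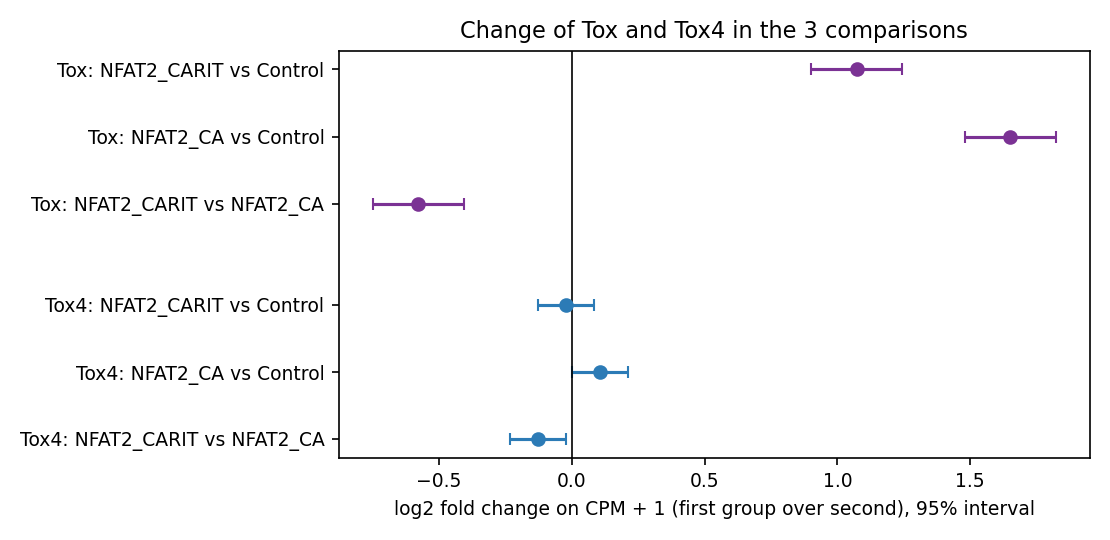
Log2 fold change on CPM + 1 (first group over second) of Tox and Tox4 in the 3 comparisons; points are limma estimates and bars their 95% intervals. Tox lies at 1.07, 1.65 and −0.58, with each interval clear of 0. Tox4 lies at −0.02, 0.11 and −0.13. Its intervals for NFAT2_CA against Control (0.0002 to 0.2126) and between the vectors (−0.2344 to −0.022) also exclude 0. They are not adjusted for the number of genes, and neither change was called.

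Nfatc1, the gene whose product the NFAT2 vectors carry, took the same order of group means. It had 240.5, 245 and 253 CPM with NFAT2_CARIT, 342, 336 and 395 CPM with NFAT2_CA and 224, 228 and 188 CPM in Control. Whether reads of the vector and of the chromosomal gene (chromosome 18, 80606205 to 80713071, minus strand) were counted together was not given in the sources used here. The log2 fold change of Nfatc1 was 0.74 (adjusted p = 3.61e-07, limma) with NFAT2_CA against Control and −0.53 (adjusted p = 9.25e-05) with NFAT2_CARIT against NFAT2_CA. With NFAT2_CARIT against Control it was 0.21 (adjusted p = 0.023), a call lost without Control replicate 3 (0.12, adjusted p = 0.102), without NFAT2_CARIT replicate 2 (0.21, adjusted p = 0.0548) and without NFAT2_CARIT replicate 3 (0.19, adjusted p = 0.0704), and also with all libraries under a variance model with no trend or robust setting (0.21, adjusted p = 0.0672). The authors' deposited table gives that comparison an FDR of 0.192. Its part in the difference of Tox between the vectors was not tested.

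Cd8b1, a marker of CD8 T cells, took the same order of groups as Tox, while Cd8a was highest with NFAT2_CARIT. Their summed level was 22.6 to 24.0 CPM with NFAT2_CARIT, 28.4 to 30.8 CPM with NFAT2_CA and 12.5 to 13.7 CPM in Control, nearly all of it Cd8b1. Cd8a alone, which with Cd8b1 forms the CD8 coreceptor, had 1.35 to 2.00 CPM, 0.377 to 0.633 CPM and 0.128 to 0.5 CPM in NFAT2_CARIT, NFAT2_CA and Control libraries. Of the 5 B cell markers, the 2 analysed summed to 0.733 to 1.6, 0.629 to 1.23 and 2.5 to 3.47 CPM in the same order. Of the 6 myeloid markers, the 3 analysed summed to 8.85 to 10.8, 7.29 to 7.58 and 11.0 to 13.0 CPM, but they moved in different directions. Against Control, Itgam fell, with log2 fold changes of −1.95 with NFAT2_CARIT and −2.39 with NFAT2_CA, and Cd68 rose by 0.85 and 0.40. Cd14, which was not tested, averaged 0.563 and 0.961 CPM with NFAT2_CARIT and NFAT2_CA, against 0.0284 CPM in Control. The part of other cells in the change of Tox was not tested.

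Tox2 was below 1 CPM in all 9 libraries and did not reach the level needed for a test. It had 0.183, 0.687 and 0.551 CPM with NFAT2_CARIT, 0.744, 0.251 and 0 CPM with NFAT2_CA, and 0.340, 0.158 and 0.583 CPM in Control. These values correspond to 7, 25 and 11 reads, 20, 6 and 0 reads, and 8, 5 and 14 reads, each whole within 0.1 read. The groups overlapped throughout, and the highest and the lowest of the 9 libraries were both in the NFAT2_CA group. The NFAT2_CA library without a read (replicate 3) allows up to 0.127 CPM. Pooled over a group's libraries, Tox2 had 0.455 CPM with NFAT2_CARIT (95% Poisson interval 0.329 to 0.613). It had 0.349 CPM (0.228 to 0.512) with NFAT2_CA and 0.341 CPM (0.225 to 0.496) in Control. These intervals cover counting error only and leave out the spread between libraries: the NFAT2_CA libraries at 0.744 and 0 CPM lie outside theirs.

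Fitted without the filter on low values, Tox2 differed by 0.11 on the log2 scale between NFAT2_CARIT and Control (95% interval −0.32 to 0.54, adjusted p = 0.667, limma). Between NFAT2_CA and Control the value was −0.06 (−0.49 to 0.37, adjusted p = 0.831), and between NFAT2_CARIT and NFAT2_CA it was 0.17 (−0.26 to 0.60, adjusted p = 0.62). The authors' deposited table gives FDRs of 0.948, 0.989 and 1 for these comparisons. No change of Tox2 was detected in these libraries, where its reads were few and varied widely within a group. The parts of depth and of that variation were not tested. On this scale, where 1 CPM is added, low values give small fold changes. The difference log2(Tox2 + 1) minus log2(Tox + 1) averaged −4.43 ± 0.22 with NFAT2_CARIT, −5.18 ± 0.42 with NFAT2_CA and −3.47 ± 0.16 in Control (SD, n = 3). It was thus 0.96 lower with NFAT2_CARIT and 1.71 lower with NFAT2_CA than in Control, and 0.75 higher with NFAT2_CARIT than with NFAT2_CA, each with an exact two-sided permutation p of 0.1. Tox2 itself overlapped between the groups and lay below the 1 CPM added. The difference thus mostly restates the rise of Tox alone, 1.07 with NFAT2_CARIT and 1.65 with NFAT2_CA against Control. A p of 0.1 is the smallest that 3 against 3 libraries allow.

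Tox4 was the most abundant member and varied least. It had 141.6, 140.5 and 139.8 CPM with NFAT2_CARIT, 152.6, 154.3 and 154.6 CPM with NFAT2_CA, and 144.0, 142.4 and 142.0 CPM in Control. The NFAT2_CA libraries were the highest, and the NFAT2_CARIT libraries lay below Control by a gap of only 0.401 CPM between the nearest 2 libraries. Pooled 95% Poisson intervals from the estimated reads were 138 to 143 CPM with NFAT2_CARIT and 140 to 145 CPM in Control, which overlap. With NFAT2_CA the interval was 151 to 157 CPM. Each interval, which covers counting error only, is wider than the range of that group's libraries. Means were 140.7 ± 0.910, 153.8 ± 1.10 and 142.8 ± 1.06 CPM (SD, n = 3 each) with NFAT2_CARIT, NFAT2_CA and Control, so the coefficient of variation within a group was 0.647% to 0.740%. It was 1.67% to 11.6% for Tox.

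Libraries did not overlap for 73.1% of tested genes in NFAT2_CARIT against Control, 68.3% in NFAT2_CA against Control and 44.0% between the vectors. Those of Tox4 did not overlap in any of the 3 comparisons either, and no change of Tox4 was called. Against Control the log2 fold change was −0.02 ± 0.05 with NFAT2_CARIT (95% interval −0.13 to 0.08, adjusted p = 0.713, limma) and 0.11 ± 0.05 with NFAT2_CA (0.00 to 0.21, adjusted p = 0.0724). Between NFAT2_CARIT and NFAT2_CA it was −0.13 ± 0.05 (−0.23 to −0.02, adjusted p = 0.0671), a difference of −8.56% in mean CPM. That last value was called with quantile normalization (−0.15, adjusted p = 0.0306) and without Control replicate 3 (−0.13, adjusted p = 0.0315). The small difference between NFAT2_CARIT and Control turned to 0.03 with TMM factors (adjusted p = 0.612). The authors' deposited table gives Tox4 FDRs of 0.947, 0.637 and 1 for NFAT2_CARIT against Control, NFAT2_CA against Control and NFAT2_CARIT against NFAT2_CA.

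The 3′ part of Tox4 overlaps Mettl3, the catalytic subunit of the RNA m6A methyltransferase, on the opposite strand: 933 exon bases, or 13.4% of the exon bases of Tox4. A further 195 exon bases (2.81%) are shared with Rab2b. The sources used here do not say whether counting used the strand, and reads in these bases cannot be assigned with certainty. Mettl3 itself averaged 17.4 ± 0.359 CPM with NFAT2_CARIT, 19.9 ± 1.12 CPM with NFAT2_CA and 26.0 ± 2.21 CPM in Control (SD, n = 3). It fell by 0.55 on the log2 scale with NFAT2_CARIT (adjusted p = 1.35e-05, limma) and fell by 0.37 with NFAT2_CA (adjusted p = 0.000801) against Control. The authors' deposited table gives Mettl3 FDRs of 0.127 and 0.422 for these comparisons and so calls neither. The part of Mettl3 in the values of Tox4 was not tested. Tox shares 260 exon bases (3.42%) with the antisense gene Gm11802, which was not analysed here.

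Per kilobase of the longest coding transcript, the order of the members was Tox4, Tox, Tox2 in every group. Tox4 averaged 26.3, 28.8 and 26.7 CPM per kilobase in NFAT2_CARIT, NFAT2_CA and Control, and Tox averaged 7.71, 11.6 and 3.54. Tox2 lay at 0.161, 0.113 and 0.122 CPM per kilobase on the same measure. The distance between Tox4 and Tox was thus narrowest with NFAT2_CA and widest in Control. Which transcripts the reads came from is unknown, and another transcript length would move these levels.

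Tox was next set beside 18 other transcription factor genes linked to T cell exhaustion. With NFAT2_CARIT 9 of the 18 rose and 7 fell against Control (median log2 fold change 0.12, −0.09 over all tested genes), and with NFAT2_CA 8 rose and 7 fell (median −0.05, −0.06 over all). Nr4a2, an orphan nuclear receptor, rose by 3.89 with NFAT2_CARIT and 5.37 with NFAT2_CA on the log2 scale, more than Tox in both. The related Nr4a3 rose by 3.71 and 3.14, and Nr4a1 by 2.85 and 1.82. Irf4, a partner of BATF and NFAT, rose by 1.99 and 2.62, and Bhlhe40 by 2.35 and 2.09. These genes were named for the size of their change, and all of them rose. Among the 7 that fell with each vector were Nfatc2, at −1.43 with NFAT2_CARIT and −1.23 with NFAT2_CA, and Id2, at −1.14 and −0.965. Between the vectors, Nr4a2 was lower with NFAT2_CARIT like Tox (−1.48, adjusted p = 1.03e-10, limma), whereas Nr4a1 was higher (1.04, adjusted p = 4.86e-07). In that comparison 6 of the 18 were called higher and 6 lower with NFAT2_CARIT, beside 11.9% and 16.7% of all tested genes. Against Control, 29.2% of all tested genes were called higher and 41.1% lower with NFAT2_CARIT, and 29.0% and 36.5% with NFAT2_CA.

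**Figure D3:**
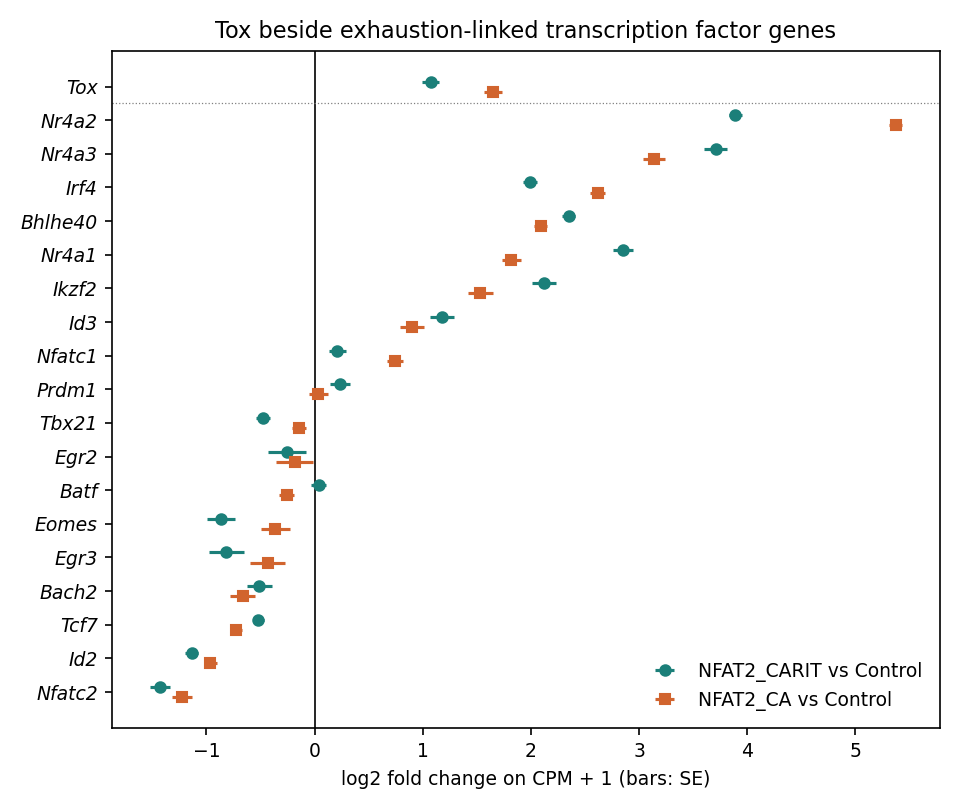
Log2 fold change against Control on CPM + 1 for Tox (top row) and 18 exhaustion-linked transcription factor genes, sorted by the NFAT2_CA value; circles are NFAT2_CARIT, squares NFAT2_CA, and bars the SE, where they exceed the symbol. Tox at 1.07 and 1.65 lies among the genes that rose, below Nr4a2 at 3.89 and 5.37.

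Of 14 tested coinhibitory receptor and surface genes linked to T cell exhaustion, 8 rose and 3 fell with NFAT2_CARIT (median 0.70). With NFAT2_CA 10 rose and 3 fell (median 0.66). Lag3, which binds MHC class II, rose by 4.27 with NFAT2_CARIT and 4.14 with NFAT2_CA. Tigit rose by 2.08 and 2.78, Cd200 by 1.97 and 2.83, and Havcr2, which encodes TIM-3, by 2.21 and 1.25. Cd226, the activating counterpart of Tigit, fell, with values of −3.58 and −3.83. The receptor genes Cd160 and Btla were lower with NFAT2_CARIT than with NFAT2_CA, as Tox was, at −2.07 (adjusted p = 6.16e-08, limma) and −0.98 (adjusted p = 2.13e-07). In that comparison 3 of the 14 were higher and 5 lower, beside 11.9% and 16.7% of all tested genes. Shares of all tested genes against Control were 29.2% higher and 41.1% lower with NFAT2_CARIT (median −0.09). With NFAT2_CA they were 29.0% and 36.5% (median −0.06). Cd160 was not called with NFAT2_CARIT against Control (0.28, adjusted p = 0.109), except without Control replicate 3 (0.42, adjusted p = 0.0239).

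Other genes of the HMG-box class, to which Tox belongs, moved in both directions, as tested genes did at large. Of 18 tested, 5 rose and 6 fell with NFAT2_CARIT (median −0.05), a split of 7 and 5 with TMM factors (median 0.00), and 7 rose and 5 fell with NFAT2_CA (median 0.13). Lef1 and Tcf7, which encode the T cell factors of the Wnt pathway, both fell, with values of −1.21 and −0.52 with NFAT2_CARIT and −1.27 and −0.73 with NFAT2_CA. Ubtf, a factor of RNA polymerase I, fell by 1.22 with NFAT2_CARIT and fell by 1.07 with NFAT2_CA, and Hmgb3 rose by 0.69 and 0.72. Sox12 moved apart with the vectors, at 1.78 ± 0.824 CPM with NFAT2_CARIT, 13.5 ± 2.09 CPM with NFAT2_CA and 5.85 ± 1.01 CPM in Control (SD, n = 3), all 3 differences being called. Hmg20b was 0.22 higher with NFAT2_CARIT than with NFAT2_CA (adjusted p = 0.0209, limma), a call lost without NFAT2_CA replicate 1 (0.21, adjusted p = 0.0744) or 3 (0.21, adjusted p = 0.0518) and without NFAT2_CARIT replicate 1 (0.21, adjusted p = 0.0702) or 2 (0.23, adjusted p = 0.0533). Between the vectors 3 of the 18 were called higher and 1 lower with NFAT2_CARIT, against 2 higher and 3 lower with quantile normalization. All tested genes gave 11.9% higher and 16.7% lower there. Against Control they gave 29.2% higher and 41.1% lower with NFAT2_CARIT (median −0.09), and 29.0% and 36.5% with NFAT2_CA (median −0.06).

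All 5 other genes of the PTW/PP1 complex, in which Tox4 is a subunit, were tested. With NFAT2_CARIT 2 rose and 3 fell against Control (median −0.28), and with NFAT2_CA 1 rose and 3 fell (median −0.39), while Tox4 was not called. Whether they differed from Tox4 was not tested. Among all tested genes, 29.2% were called higher and 41.1% lower with NFAT2_CARIT (median −0.09), and 29.0% and 36.5% with NFAT2_CA (median −0.06). Between the vectors 28.6% were called. Ppp1r10, the scaffold PNUTS, fell by 0.39 with NFAT2_CARIT and fell by 0.47 with NFAT2_CA, and Wdr82 had −0.56 and −0.62. Of the catalytic subunits, Ppp1ca fell, at −0.28 and −0.39, and Ppp1cb rose by 0.42 and 0.30. Ppp1cc rose by 0.22 with NFAT2_CARIT (adjusted p = 0.00309, limma), and its value with NFAT2_CA was 0.00 (adjusted p = 0.95), a sign that some alternatives turned. Between the vectors Ppp1cc was the 1 gene of the 5 called, 0.21 higher with NFAT2_CARIT (adjusted p = 0.0112), a call lost without NFAT2_CARIT replicate 3 (0.18, adjusted p = 0.0527). With TMM factors Ppp1cb was called too (0.17, adjusted p = 0.0361).

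The genes whose pattern over the 9 libraries lay nearest to that of a tested member were found by the root mean square distance between log2(CPM + 1) profiles, each centred on its own mean, among 11135 genes. For Tox they were Ung, an enzyme that removes uracil from DNA (distance 0.0837), Lif, a cytokine (0.115), and Lss, the lanosterol synthase of cholesterol synthesis (0.118). Ung averaged 7.10 ± 0.298 CPM with NFAT2_CARIT, 9.82 ± 0.265 CPM with NFAT2_CA and 2.85 ± 0.281 CPM in Control (SD, n = 3). Lif averaged 13.9 ± 0.733, 20.8 ± 0.910 and 6.86 ± 0.427 CPM, and Lss 70.6 ± 6.30, 89.4 ± 2.89 and 31.3 ± 2.04 CPM, in the same groups. All 3 shared with Tox the order NFAT2_CA, NFAT2_CARIT, Control. They were chosen for nearness to Tox over these libraries, so the shared order follows from that choice and is no separate result.

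For Tox4 the nearest genes were Rdx, which encodes the membrane linker radixin (0.0230), Anapc4, a subunit of the anaphase-promoting complex (0.0254), and Trmt2b, an RNA methyltransferase (0.0289). Their profiles, like that of Tox4, covered a narrow range, and their likeness to Tox4 follows from the way they were chosen. Rdx averaged 159 ± 1.46 CPM with NFAT2_CARIT, 173 ± 2.95 CPM with NFAT2_CA and 159.8 ± 4.02 CPM in Control (SD, n = 3), and was highest with NFAT2_CA like Tox4. Tox2, being below the level tested, was not searched. Ranked by Pearson correlation in place of distance, 1 of the 3 genes stayed for Tox (Ung) and 0 of 3 for Tox4, so the names depend on the measure.

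**Figure D4:**
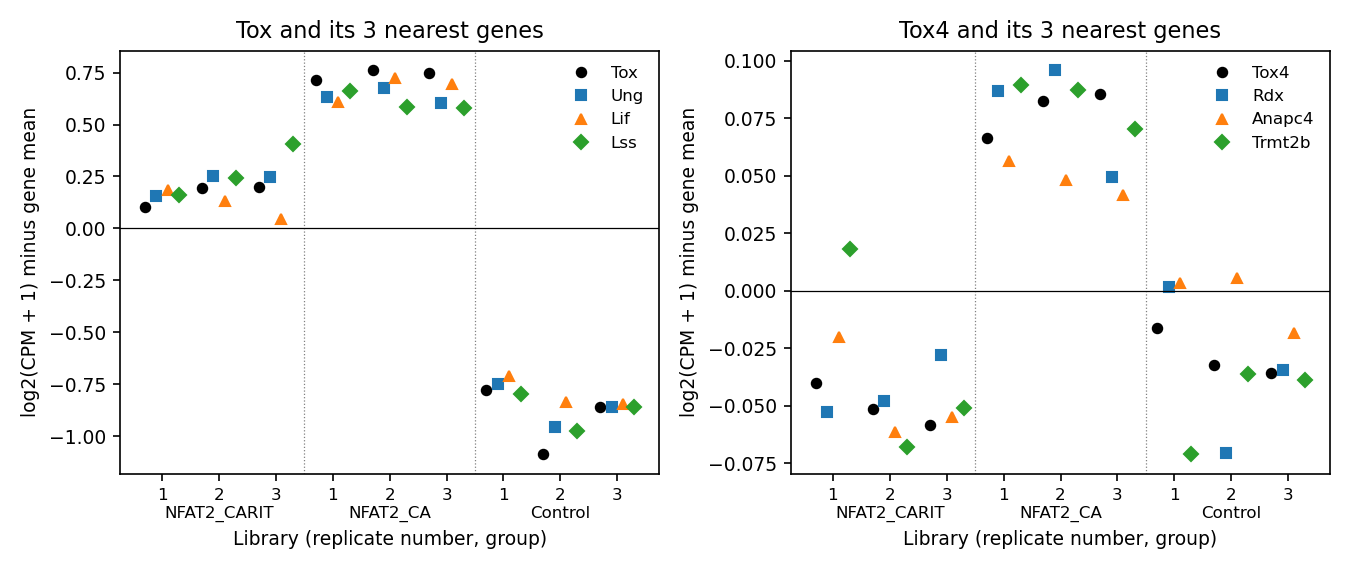
Log2(CPM + 1) minus the gene's mean over 9 libraries, for Tox (left) and Tox4 (right) and the 3 genes nearest to each; points are libraries and dotted lines part the groups. The vertical axes differ. Tox and its nearest genes, which were chosen for likeness to it, are highest with NFAT2_CA and lowest in Control, Tox differing by 1.65. The Tox4 panel covers a far narrower range, Tox4 differing by 0.13 between the vectors.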

How the data were processed

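RNA of 9 libraries (3 per group) was purified on columns and sequenced from both ends at a core facility, per the labels' protocols. The deposited CPM values are reads per gene that the authors scaled to a fixed total per library over 16500 genes, with 0.0001 added to each, as checked on the file. The authors' deposited comparison table gives p-values, step-up FDRs, ratios of group means and their log2, per the file headers. It was made with DESeq2 and Partek 10 on build mm10, per the submitters' processing notes. Aligner, quantifier, annotation and strand use were not given in the sources used here.

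Depth was estimated from the spacing of low values. Between 81.3% and 84.5% of values up to 1 CPM were whole within 0.1 read, short of the 95% required to rebuild read counts, and no count test was run. Replicates differed beyond sampling noise (mean chi-square per gene 4.62 to 29.1). In every group replicates 1 and 2 were the closest pair, at 7.9 with NFAT2_CARIT, 6.16 with NFAT2_CA and 4.62 in Control. Pairs with replicate 3 gave 14.0 to 29.1.

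All 9 libraries entered a fit by limma 3.58.1 (R 4.3.3) of log2(CPM + 1) on group, moderated by empirical Bayes (trended prior, robust), and p-values were adjusted by Benjamini-Hochberg. The filter of 1 CPM in at least 3 libraries left Tox2 untested. The test was tried on simulated data: the fitted changes followed the true ones, but it recovered fewer of the moderate changes than a first pass mark required, and that mark was replaced after this was seen. TMM factors were computed with a re-implementation, whose first, unweighted form was replaced by the weighted one after its results were seen. The length behind levels per kilobase was changed from all exons to the longest coding transcript after the lengths were seen. Files were read and figures drawn in Python 3.11.15 (pandas 2.3.3, NumPy 2.4.6, matplotlib 3.10.9, SciPy 1.17.1).

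The members, the gene lists, the tests and the naming rule were chosen with earlier results of these data known. Named were the members, Nfatc1, the 3 genes nearest to each tested member, every PTW/PP1 gene and, for each list, up to 4 called genes with the largest change against Control per vector and up to 2 between the vectors. Mettl3 and Rab2b were named for their overlap with Tox4, and marker genes from a fixed list. Outside that rule, Nfatc2 and Id2 were named as the exhaustion-linked factors that fell most against Control. Alternatives were quantile normalization, TMM factors, pseudocounts of 0.5 and 5 CPM, a 10 CPM filter, none, a fit of the 6 libraries in a comparison, a block for replicate number, a plain variance model, and each library left out.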

Additional observations from a re-analysis of the deposited data

How the results depend on the processing

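Across 18 alternatives, Tox kept its direction and call in every comparison: 0.90 to 1.17 on the log2 scale for NFAT2_CARIT against Control, 1.43 to 1.72 for NFAT2_CA against Control and −0.59 to −0.52 between the vectors. Tox4 stayed uncalled against Control, at −0.06 to 0.03 for NFAT2_CARIT (0.032 with TMM factors, adjusted p = 0.612, against −0.02 as reported) and 0.10 to 0.11 for NFAT2_CA. Between the vectors it ranged from −0.15 to −0.07 and was called with quantile normalization (−0.15, adjusted p = 0.0306) and, with libraries left out (−0.13 to −0.12), without Control replicate 3 (−0.13, adjusted p = 0.0315). Control is not part of that comparison, so leaving out its replicate 3 kept the estimate (−0.128 in both fits). It altered only the spread estimated over all libraries and the set of genes tested. Why quantile normalization changed the call was not tested. Tox2 ranged from 0.00 to 0.26 for NFAT2_CARIT against Control, −0.27 to 0.13 for NFAT2_CA against Control and −0.02 to 0.38 between the vectors. It has no value under quantile normalization, the 10 CPM filter, the 6-library fit, the block or the plain variance model. Counts of called genes stayed within 1.5 times: 6964 to 9693, 6650 to 9005 and 2763 to 4215. Counts called within the gene lists were repeated under both other scalings, a choice made after seeing the data. Counts in each direction stayed within 1.5 times, except between the vectors. There, with TMM factors, 2 PTW/PP1 genes were higher with NFAT2_CARIT (1 as reported), 3 thymic lineage genes lower (5 as reported), and 1 HBO1 gene higher and 1 lower (0 and 2 as reported). With quantile normalization 3 HMG-box genes were lower (1 as reported). TMM factors also turned Anapc4 (0.011) and Rdx (0.046) in NFAT2_CARIT against Control. Quantile normalization turned Ppp1cc in NFAT2_CA against Control (−0.008). Leaving out 1 library gave Ppp1cc −0.022 to 0.04 there, and gave Rdx −0.027 to 0.009 and Trmt2b −0.011 to 0.032 in NFAT2_CARIT against Control. Between the vectors, listed genes whose values are not printed here were left out of these checks. That choice was made after some of them were seen to reverse.

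Libraries of different groups with the same replicate number deviated from their group means with correlations of −0.237 to 0.312. Those with different numbers gave −0.377 to 0.385, so the numbers were not taken to pair the libraries. With the number as a replicate block, 9178, 8562 and 3544 genes were called in NFAT2_CARIT against Control, NFAT2_CA against Control and NFAT2_CARIT against NFAT2_CA, and Tox gave adjusted p = 1.65e-07, 3.32e-09 and 0.000347 (limma). No call of Tox or Tox4 changed. Tox2 rests on few reads, 0 to 25 a library, and these varied within a group, with 20, 6 and 0 reads in the NFAT2_CA libraries.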

Other observations

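Genes of other settings in which Tox or Tox2 act were also read out. Counts in the lists below stand beside these shares of all tested genes. Against Control, 29.2% were called higher and 41.1% lower with NFAT2_CARIT (median −0.09), and 29.0% and 36.5% with NFAT2_CA (median −0.06). Between the vectors, 11.9% were called higher and 16.7% lower with NFAT2_CARIT (median −0.03). Of 13 tested follicular helper genes, where Tox2 is known to act, 6 rose and 5 fell with NFAT2_CARIT (median log2 fold change 0.14) and 8 rose and 4 fell with NFAT2_CA (median 0.68). Il21, the cytokine of follicular helper cells, rose by 3.23 with NFAT2_CARIT and 2.94 with NFAT2_CA, and Icos by 1.71 and 1.25. Bcl6, their lineage factor, rose by 1.69 and 0.85, while Maf fell, at −1.49 and −1.98. Angptl2 averaged 3.33 ± 0.287 CPM with NFAT2_CARIT, 25.6 ± 0.680 CPM with NFAT2_CA and 1.12 ± 0.444 CPM in Control (SD, n = 3). Between the vectors 3 were called higher and 6 lower with NFAT2_CARIT, among the lower ones Angptl2 (−2.62) and Pou2af1 (−1.15).

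Of 11 genes of thymic CD4 lineage factors, a setting in which Tox is required, 2 rose and 7 fell with NFAT2_CARIT (median −0.38) and 3 rose and 6 fell with NFAT2_CA (median −0.39). Myb rose by 2.13 with NFAT2_CARIT and 2.10 with NFAT2_CA, and Gata3 by 0.40 and 0.82. Bcl11b fell, at −1.31 and −1.06, as did Runx1, at −0.81 and −0.70, and Tcf3, at −0.82 and −0.56. Gata3 (−0.43) and Tcf12 (−0.48) were among the 5 called lower with NFAT2_CARIT than with NFAT2_CA (3 with TMM factors).

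Of 10 genes of the HBO1 acetyltransferase complex, which Tox is reported to bind, 3 rose and 4 fell with NFAT2_CARIT (median 0.00) and 1 rose and 4 fell with NFAT2_CA (median −0.03). Jade1 rose by 2.00 with NFAT2_CARIT and 2.13 with NFAT2_CA. Jade2 fell, at −1.39 and −0.73, as did Jade3, at −0.87 and −0.83, and Meaf6, at −0.65 and −0.52. Jade2 (−0.66) and Ing5 (−0.24) were the 2 called lower with NFAT2_CARIT than with NFAT2_CA. With TMM factors Ing5 was not called (−0.19, adjusted p = 0.0513, limma), and 1 of the 10 was higher and 1 lower.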
